A study of Mus musculus with 8 samples.

Results

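The 7 genes described here encode the core chains of antigen presentation by the major histocompatibility complex (MHC): H2-K1, H2-D1 and B2m of class I, and H2-Aa, H2-Ab1, H2-Eb1 and Cd74 of class II. They were chosen by name, as 7 of the 21765 gene symbols in the table of polysome-associated RNA, and all 7 were among the 16097 genes with a mean of at least 1 TPM (transcripts per 1000000) that were tested. RNA came from the main olfactory epithelium of mice, treated with cycloheximide at 100 µg/mL when it was dissected, and lysates were separated on sucrose gradients into about 42 fractions of 350 µL. Pools of 50 µL from fractions 27 to 34 made the early (lighter) polysomes, and pools from fractions 35 to 42 made the late (heavier) polysomes. The wild-type group (WT) had Mex3a floxed on 1 or both alleles and no Cre, and the conditional knockout group (cKO) was flox/flox at Mex3a with Cre present. Which Cre line was used is not reported here, and age, sex and the number of mice behind a lysate are not given in the sources used here. Each of WT early, WT late, cKO early and cKO late held 2 libraries, and library names tie an early and a late library to each of 2 WT and 2 cKO lysates. The question was which transcripts move between lighter and heavier polysomes, or change on polysomes, when Mex3a, an RNA-binding protein gene, is lost.

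Class I molecules are a heavy chain (H2-K1 or H2-D1) paired with the light chain B2m, and they show peptides made inside the cell to CD8 T cells on nearly all nucleated cells. Class II molecules pair an alpha with a beta chain (H2-Aa with H2-Ab1, or an E alpha chain with H2-Eb1), show peptides from engulfed material to CD4 T cells, and are carried mainly by macrophages, dendritic cells and B cells. Cd74, the invariant chain, fills the class II groove until the endosome. A polysome gradient separates an mRNA by how many ribosomes it carries, and longer coding sequences have room for more.

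Whole reads inferred from the steps of the TPM values summed to between 7776792 (cKO late replicate 2) and 12771079 per library. Mex3a, the deleted gene, was at 93.2 to 115.6 TPM over the 4 WT libraries and at 11.1 to 19.8 TPM over the 4 cKO libraries. WT early replicate 2, at 115.6, has a genotype tag that reads cKO although its title says WT, and it was kept as WT. Markers of the tissue were high, such as Omp of mature olfactory neurons at a mean of 3658 scaled TPM. No label says that the lysates of a genotype came from separate mice, so p-values measure the spread between these lysates and libraries.

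The genes of H2-K1 (33996017 to 34000347, minus strand), H2-Ab1 (34257689 to 34269419, plus), H2-Aa (34282744 to 34287823, minus), H2-Eb1 (34305867 to 34316674, plus) and H2-D1 (35262730 to 35267499, plus) lie on chromosome 17 of GRCm38. B2m lies on chromosome 2 (122147686 to 122153083, plus). Promoter sequence is shown because genes of both classes are known to share an upstream module. In it the X2 box and the Y box (a CCAAT box) bind different factors of an enhanceosome. RefSeq windows from 250 bases before to 50 after the transcription start (GRCm38.p6) were matched for H2-K1, H2-D1, B2m, H2-Aa and H2-Eb1. They are written 5′ to 3′ on the gene's strand, with the motifs TGACG and ATTGG in capitals; the stretch of H2-D1 is shortened to the motifs because a longer GENCODE transcript places it in a 5′ UTR.
H2-K1, chr17:34000349-34000408, minus strand: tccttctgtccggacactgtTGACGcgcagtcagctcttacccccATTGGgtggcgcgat
H2-D1, chr17:35262993-35263022, plus strand: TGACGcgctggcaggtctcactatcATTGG
B2m, chr2:122147589-122147648, plus strand: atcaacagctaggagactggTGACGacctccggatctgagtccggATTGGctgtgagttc
H2-Aa, chr17:34287857-34287916, minus strand: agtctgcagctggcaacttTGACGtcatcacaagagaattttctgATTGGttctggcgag
H2-Eb1, chr17:34305763-34305822, plus strand: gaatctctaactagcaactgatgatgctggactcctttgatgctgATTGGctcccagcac

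In the 3 class I promoters TGACG and ATTGG started 25 bases apart, and in H2-Aa 26 bases apart, while the H2-Eb1 window held ATTGG without TGACG before it at that spacing. A search on both strands found ATTGG in 37.4% and TGACG in 20.8% of 32851 promoter windows of the same length. The pair in that order on the same strand, with starts 20 to 30 bases apart, was in 143 windows (0.435%), a spacing range set after the members' positions were seen. A match is a description of the letters, not evidence of binding.

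Sequence around the start codon is shown because the assay reads ribosome loading. The 9 bases before the ATG and the 4 after it, from the principal GENCODE M21 transcripts, are written with the base 3 before the ATG, the ATG and the base after it in capitals.
H2-K1: acaggtGcgATGGtac
H2-D1: ggatccCagATGGggg
B2m: gtcgtcAgcATGGctc
H2-Aa: gagaccAggATGCcgc
H2-Ab1: gccttaGagATGGctc
H2-Eb1: tcctgcAgcATGGtgt

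A purine at the marked upstream position and a G after the ATG are the main features of the Kozak consensus. H2-D1 lacked the purine and H2-Aa lacked the G, and the other 4 sequences had both. Over 16305 coding transcripts, 85.0% had the purine, 49.5% the G and 41.6% both.

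The heavy chains are close paralogs, which bears on every value of theirs. The coding sequences of H2-K1 and H2-D1 were 88.3% identical over their alignment. Of the 50-base windows of the H2-K1 transcript, 138 of 1570 (8.79%) also occurred in transcripts of another gene, and of those of H2-D1, 294 of 2053 (14.3%). B2m, H2-Aa, H2-Ab1, H2-Eb1 and Cd74 had 0 such windows. The counting method is not given in the sources used here, so the split of reads between H2-K1, H2-D1 and other class I genes is uncertain.

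The members differed widely in level. In early polysomes B2m was at 275.7 and 337.0 TPM (WT) and 315.6 and 386.7 (cKO), and in late polysomes at 134.8 and 134.3 (WT) and 136.5 and 130.5 (cKO). For H2-K1 the early values were 60.15 and 48.6 (WT) and 67.3 and 52.5 (cKO), and the late values 116.8 and 122.5 (WT) and 171.1 and 161.3 (cKO). H2-D1, the other heavy chain, was lower, at 13.3 and 12.0 (WT) and 14.4 and 19.3 (cKO) in early and 16.2 and 22.6 (WT) and 20.6 and 20.3 (cKO) in late polysomes. The early and late libraries of B2m and of H2-K1 did not overlap, in opposite directions, and those of H2-D1 did.

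Of the class II genes, Cd74 was the most abundant, at 87.6 and 66.5 TPM (WT) and 102.2 and 73.9 (cKO) in early and 117.7 and 146.9 (WT) and 152.9 and 176.1 (cKO) in late polysomes. H2-Ab1, the A beta chain, was at 36.8 and 38.4 (WT) and 46.0 and 35.1 (cKO) in early and 69.0 and 67.0 (WT) and 80.1 and 66.5 (cKO) in late polysomes. For both genes every late library was above every early library. H2-Aa, the A alpha chain, was at 27.98 and 25.5 (WT) and 42.7 and 30.3 (cKO) in early and 36.3 and 34.9 (WT) and 41.6 and 45.4 (cKO) in late polysomes. H2-Eb1, the E beta chain, was at 15.3 and 12.7 (WT) and 16.4 and 8.06 (cKO) in early and 15.6 and 15.1 (WT) and 26.2 and 14.2 (cKO) in late polysomes. For these 2 genes early and late libraries overlapped, and the cKO replicates of H2-Eb1 lay further apart than its WT group means did. H2-Ea-ps, the symbol under which the E alpha gene is listed, was below the filter, at a mean of 0.0785 scaled TPM.

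**Figure D1:**
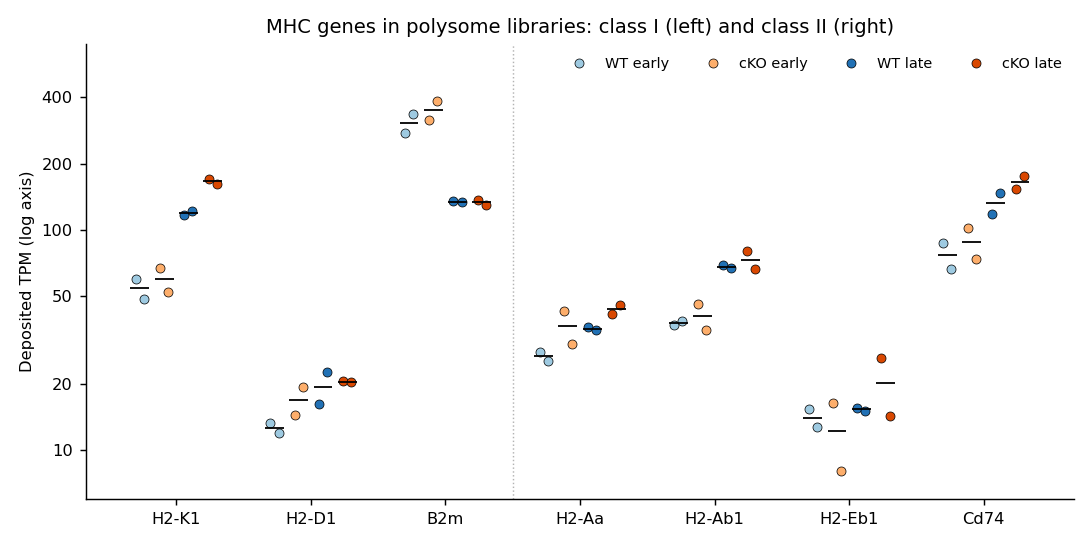
Deposited TPM (log axis) of the 3 class I and 4 class II genes in each library (points, 2 per group) with the group mean (bar). B2m was higher in all 4 early libraries and H2-K1, H2-Ab1 and Cd74 in all 4 late libraries.

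Ordered by the mean of 8 libraries after scaling by median ratios, B2m came first at 236 TPM, above 96.0% of the tested genes, followed by Cd74 at 114.3, H2-K1 at 98.55, H2-Ab1 at 54.3, H2-Aa at 35.5, H2-D1 at 17.3 and H2-Eb1 at 15.4 (above 40.2% of the tested genes). Neighbours in that order were not always apart. In early libraries Cd74 and H2-K1 overlapped, as did H2-Ab1 and H2-Aa, and H2-D1 and H2-Eb1. In late libraries B2m, Cd74 and H2-K1 overlapped, as did H2-D1 and H2-Eb1, whereas H2-Ab1 and H2-Aa did not. The inferred reads behind these values were 302 to 1456 for B2m, 452 to 907 for Cd74 and 379 to 1031 for H2-K1. They were 184 to 350 for H2-Ab1, 131 to 217 for H2-Aa, 95 to 171 for H2-D1 and 59 to 160 for H2-Eb1, the least precise of the 7.

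Between late and early polysomes the light chain B2m and the heavy chain H2-K1 of class I moved in opposite directions. TPM is relative to each library's total, so a late-minus-early change compares a transcript's share of each pool. On the log2(scaled TPM + 1) scale, H2-K1 was higher in late polysomes by 1.18 as the mean of both genotypes (SE 0.10, limma adjusted p = 2.73e-05) and in 4 of 4 lysates (background 38.2%). B2m was lower, at -1.39 (SE 0.10, limma adjusted p = 2.00e-05), and in 4 of 4 lysates (background 37.8%). The lysate values of H2-K1 were 0.86 and 1.19 for WT and 1.25 and 1.44 for cKO, and those of B2m were -1.11, -1.45, -1.29 and -1.73 in the same order. The ratio of B2m to H2-K1 TPM was 4.58 to 7.37 in early and 0.798 to 1.15 in late libraries. H2-D1 did not pass, at 0.31 (95% interval 0.01 to 0.61, limma adjusted p = 0.0638), with lysate values of 0.18, 0.74, 0.41 and -0.09. With TPM as deposited, without scaling, H2-D1 passed (0.42, limma adjusted p = 0.0185), as it did without WT late replicate 1 (0.42, limma adjusted p = 0.0251) or cKO early replicate 2 (0.42, limma adjusted p = 0.0264). It was at 0.20 without WT late replicate 2 (limma adjusted p = 0.216) or cKO early replicate 1 (limma adjusted p = 0.204).

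In class II the 2 genes that passed were both higher in late polysomes. H2-Ab1 was higher by 0.73 (SE 0.10, limma adjusted p = 0.000306), with lysate values of 0.80, 0.66, 0.71 and 0.74. Cd74 was higher by 0.73 (SE 0.13, limma adjusted p = 0.00106), with 0.33 and 1.01 in the WT and 0.49 and 1.07 in the cKO lysates. The 4 lysates of H2-Ab1 lay close together, while those of Cd74 were lower in both lysates numbered 1 than in both numbered 2. H2-Aa, the partner of H2-Ab1, did not pass, at 0.22 (95% interval -0.02 to 0.46, limma adjusted p = 0.0885), with lysate values of 0.28, 0.32, -0.12 and 0.41. It passed with TPM as deposited (0.33, limma adjusted p = 0.0235) and without cKO early replicate 1 (0.33, limma adjusted p = 0.00825), and was at 0.11 without cKO early replicate 2 (limma adjusted p = 0.290). H2-Eb1 did not pass, at 0.30 (95% interval -0.24 to 0.85, limma adjusted p = 0.281), with -0.06, 0.11, 0.57 and 0.60, and ranged from 0.07 (without cKO early replicate 2) to 0.53 (without cKO early replicate 1). With the replicate block by lysate, H2-Eb1 passed on average (limma adjusted p = 0.0222) and in cKO (0.58, limma adjusted p = 0.00917, against 0.169 without the block). The ratio of H2-Ab1 to H2-Aa TPM was 1.08 to 1.51 in early and 1.46 to 1.92 in late libraries.

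**Figure D2:**
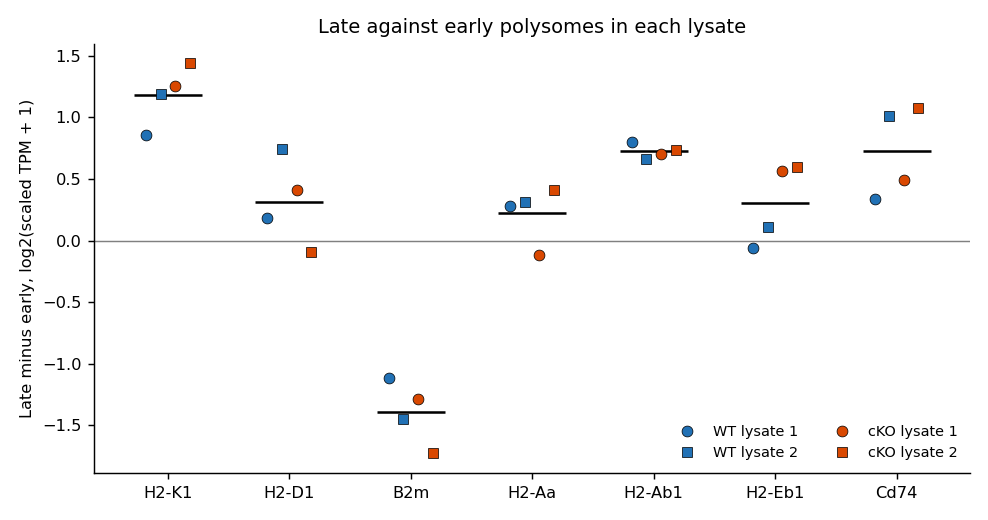
Late minus early, as the difference in log2(scaled TPM + 1), for each of the 7 genes in 4 lysates (circles and squares mark lysates 1 and 2, blue WT and orange cKO), with the mean as a bar. B2m is below 0 and H2-K1, H2-Ab1 and Cd74 are above 0 in 4 of 4 lysates.

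In all, 4 of 7 members passed an adjusted p of 0.05 on the mean of genotypes, 3 higher and 1 lower, against 68.9% of all tested genes (34.3% higher and 34.6% lower). The same 4 passed in WT (background 54.8%) and in cKO (background 58.1%). A share of 4 in 7 is near these backgrounds. The median change of the members was 0.31, against -0.01 over all tested genes. In WT, H2-K1 was higher by 1.03 (limma adjusted p = 0.000705), H2-Ab1 by 0.73 (0.00342) and Cd74 by 0.67 (0.0138), and B2m was at -1.28 (0.000415). H2-D1 passed in WT without WT late replicate 1 (0.68, limma adjusted p = 0.0319) and with TPM as deposited (0.56, 0.0299), and narrowly without cKO early replicate 1 (0.46, 0.0486) or 2 (0.46, 0.0490). H2-Aa passed in WT without cKO early replicate 1 (0.30, limma adjusted p = 0.0437) or 2 (0.30, 0.0437). The Cd74 call in WT was lost without WT early replicate 2 (0.48, limma adjusted p = 0.114) or WT late replicate 2 (0.52, 0.0990). In cKO, H2-K1 was higher by 1.34 (limma adjusted p = 0.000225), Cd74 by 0.78 (0.00620) and H2-Ab1 by 0.72 (0.00316), and B2m was at -1.51 (0.000207). H2-Aa passed in cKO without cKO early replicate 1 (0.37, limma adjusted p = 0.0402), and H2-Eb1 without cKO early replicate 1 (1.04, limma adjusted p = 0.0321) or cKO late replicate 2 (1.03, 0.0411). Without cKO early replicate 2 H2-Eb1 was at 0.12 (limma adjusted p = 0.788), and without cKO late replicate 1 at 0.14 (0.747). None of the 7 had an interaction of genotype and fraction past the threshold by limma (background 0.00621%), and 0 had an unadjusted p under 0.05 (background 2.85%). The interaction was 0.32 for H2-K1 (95% interval -0.13 to 0.76) and 0.55 for H2-Eb1 (-0.53 to 1.64). Leaving out cKO early replicate 2 or 1 gave 0.15 or 0.48 for H2-K1 and 0.095 or 1.02 for H2-Eb1.

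The members were also compared with each other within a lysate, in 21 pairs. With 4 lysates an exact two-sided sign-flip test cannot give a p below 0.125, and none of the pairs could pass. The change of H2-K1 exceeded that of H2-D1 by 0.87 ± 0.46 (SD, n = 4 lysates, 4 of 4, exact p = 0.125). The change of H2-K1 exceeded that of B2m by 2.58 ± 0.49 (SD, n = 4 lysates, 4 of 4, exact p = 0.125). H2-Aa was below H2-Ab1 by a mean difference of -0.51 ± 0.23 (SD, n = 4 lysates, 4 of 4, exact p = 0.125). The order was the same in every lysate in most of the 21 pairs, these 3 among them. The share of other gene pairs with a constant order is not given here, so this has no background beside it.

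Late-minus-early changes rose with coding length over the whole table, so each member was set beside genes of its own length. Lengths were matched for 14687 of the 16097 tested genes (91.2%), which were split by length into 10 bins of like size. The median change ran from -1.12 in the bin with the shortest coding sequences to 0.50 in the bin with the longest. B2m has the shortest coding sequence of the 7, at 357 nt without the stop codon, and its change of -1.39 was 0.28 below the median of its bin, with 23.1% of that bin lower still. H2-K1 (1107 nt) was 1.18 above the median of its bin and above 98.0% of the genes in it. Cd74 (837 nt) and H2-Ab1 (795 nt) were each 0.99 above the median of their bin, and H2-Aa (768 nt) was 0.85 above. H2-Eb1 (861 nt) was 0.57 and H2-D1 (1086 nt) 0.48 above theirs. Thus 6 of the 7 lay above and B2m below the median of genes of like length, and the 4 class II genes lay above at least 83.4% of them.

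**Figure D3:**
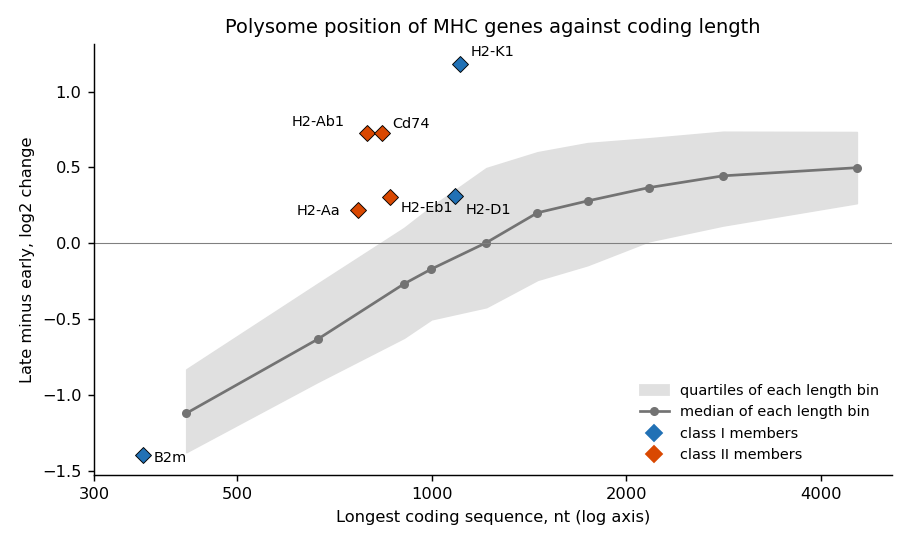
Late-minus-early log2 change (mean of genotypes) against the longest coding sequence in nt (log axis): the grey line and band are the median and quartiles of 10 length bins of 14687 genes, and diamonds are the 7 members (blue class I, orange class II). B2m lies at the lower edge of the band with the shortest genes, H2-D1 at its upper edge, and the other 5 above it.

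A list of 14 genes for class I peptide supply and loading also held proteasome genes and a transactivator. Of these, 13 were tested, and 9 were higher and 2 lower in late polysomes on the mean of genotypes (background 34.3% higher and 34.6% lower). Their median change was 0.65, against -0.01 over all tested genes. Calr, a chaperone of the heavy chain, was higher by 1.14 (SE 0.11, limma adjusted p = 4.84e-05). Tap2, a subunit of the peptide transporter, was higher by 0.89 (SE 0.17, limma adjusted p = 0.00166), and Tapbp (tapasin), which holds class I at that transporter, by 0.85 (SE 0.09, limma adjusted p = 6.95e-05). Psme2, a subunit of the proteasome activator, was lower, at -0.84 (SE 0.09, limma adjusted p = 6.26e-05). Calr, Tap2 and Tapbp thus had the direction of H2-K1, and Psme2 that of B2m, without adjustment for coding length. Nlrc5, a transactivator of class I genes, was below the filter, at a mean of 0.302 scaled TPM.

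Of 36 class I-like and other H2 class I genes listed, 26 were in the table, 11 were tested, and 6 were higher and 1 lower in late polysomes (background 34.3% and 34.6%). H2-Q4 was higher by 1.28 (SE 0.11, limma adjusted p = 2.99e-05), H2-T23, which encodes the Qa-1 molecule, by 0.88 (SE 0.18, limma adjusted p = 0.00257), and Azgp1 by 0.85 (SE 0.13, limma adjusted p = 0.000452). Hfe, a regulator of iron uptake, was lower, at -0.37 (SE 0.11, limma adjusted p = 0.0135). The coding sequence of H2-K1 was 79.1% identical to that of H2-T23 and 74.2% to that of H2-Q4, so reads may be shared here too.

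Of 19 genes listed in the class II pathway, 12 were tested, and 5 were higher and 3 lower in late polysomes, a share called near the background of 68.9% (34.3% higher and 34.6% lower). Their median change was 0.27. The lysosomal proteases Ctsl and Lgmn, which cut antigens and the invariant chain, were higher by 1.26 (SE 0.13, limma adjusted p = 5.80e-05) and 1.12 (SE 0.09, limma adjusted p = 2.92e-05). Ifi30, a thiol reductase that unfolds antigens, was higher by 0.55 (SE 0.08, limma adjusted p = 0.000306). H2-DMb2 and H2-DMa, chains of the peptide editor of class II, were lower, at -0.75 (SE 0.11, limma adjusted p = 0.000336) and -0.74 (SE 0.16, limma adjusted p = 0.00306). Rfxap, a subunit of the RFX factor, was lower, at -1.02 (SE 0.07, limma adjusted p = 2.06e-05). H2-DMb2 and H2-DMa thus went against H2-Ab1 and Cd74, and the proteases with them, again without adjustment for coding length. H2-DMb1, the other DM chain listed, did not pass, at -0.45 (limma adjusted p = 0.0923). It was at 0.01 in WT (limma adjusted p = 0.982) and -0.91 in cKO (limma adjusted p = 0.0307). Ciita, the transactivator of class II genes, was below the filter, at a mean of 0.893 scaled TPM.

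Interferons raise MHC expression in many cells, and 27 of 32 listed interferon-response genes were tested. Of these, 11 were higher and 3 lower in late polysomes (background 34.3% and 34.6%). Usp18, which restrains interferon signalling, was higher by 1.13 (SE 0.14, limma adjusted p = 0.000158) and Ifitm3, a short antiviral membrane protein, was lower, at -1.15 (SE 0.08, limma adjusted p = 2.06e-05).

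Loss of Mex3a was compared in each fraction and on the mean of each lysate's early and late values. No member passed the threshold in early (background 0.0435%), late (0.0124%) or lysate-mean (0.00621%) comparisons by limma. At an unadjusted p under 0.05 were 2 of 7 in early (background 6.64%), 1 in late (9.36%) and 4 on lysate means (11.3%). The log2 change was above 0 for 6 of 7 members in early and for 7 of 7 in late (6 with TPM as deposited, where B2m was at -0.011) and on lysate means, where the members' median was 0.28, against 0.00143 over all tested genes. The lysates did not overlap, cKO being higher, for 5 of 7 members on lysate means (background 22.7%), and the libraries for 2 in early (19.6%) and 3 in late polysomes (20.5%). In early libraries these were H2-Aa and H2-D1, and in late libraries H2-K1, H2-Aa and Cd74. Comparisons of early and late libraries are of the same lysates and are not independent of each other.

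H2-Aa had the largest lysate-mean difference of the 7, and its libraries did not overlap in either fraction (background for both 6.57%). In early libraries H2-Aa stood at 28.4 and 26.2 scaled TPM (WT) and 44.8 and 32.5 (cKO), and in late libraries at 34.6 and 32.9 (WT) and 41.3 and 43.4 (cKO). On lysate means H2-Aa was at 0.40 (SE 0.09, 95% interval 0.17 to 0.62, limma adjusted p = 0.359). H2-K1 was at 0.35 (95% interval 0.11 to 0.59, limma adjusted p = 0.368), and in late polysomes at 0.51 (95% interval 0.19 to 0.82, limma adjusted p = 0.370). Its late libraries were at 111.4 and 115.3 scaled TPM in WT and 169.6 and 154.1 in cKO, without overlap, whereas its early libraries overlapped. Cd74 was at 0.30 (95% interval 0.12 to 0.48, limma adjusted p = 0.359) and H2-D1 at 0.28 (0.01 to 0.55, limma adjusted p = 0.430) on lysate means. H2-Ab1 was at 0.14 (-0.14 to 0.43), B2m at 0.14 (-0.06 to 0.34) and H2-Eb1 at 0.07 (-0.61 to 0.76). The interval of H2-Eb1 was the widest of the 7 and held changes in either direction.

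**Figure D4:**
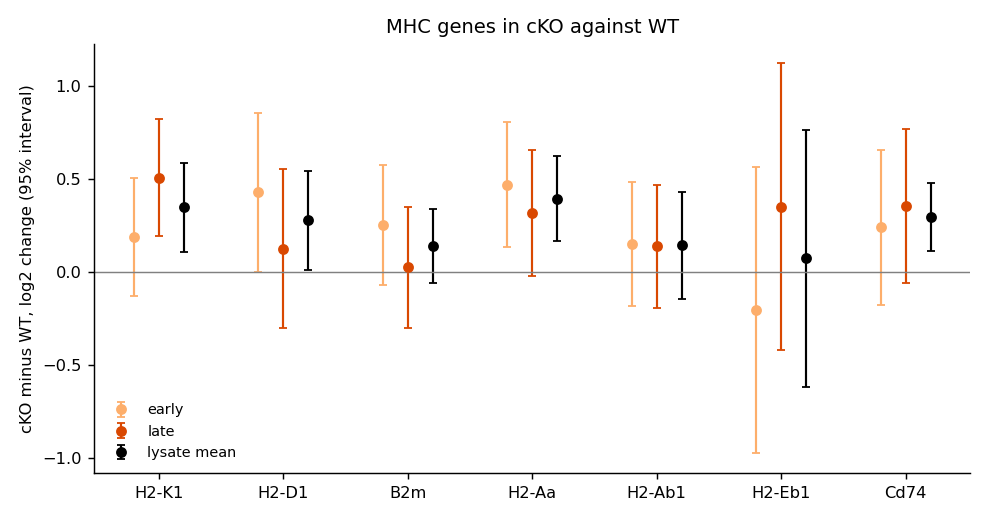
Log2 change in cKO against WT for each gene in early polysomes (light orange), late polysomes (dark orange) and on lysate means (black), with 95% intervals from limma. Lysate-mean estimates are above 0 for 7 of 7 genes, and none passes an adjusted p of 0.05.

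Marker lists of immune cells and of the tissue were set beside these differences, and 0 genes of any list were called between genotypes. In bulk RNA, fewer cells of a type and less RNA per cell cannot be told apart. The summed class II members were at 147 to 170 scaled TPM in WT early and 158 to 218 in cKO early libraries, and at 228 to 249 in WT late and 289 to 298 in cKO late libraries. The summed class I members were at 354 to 409 in WT early and 418 to 492 in cKO early, and at 255 to 263 in WT late and 298 to 325 in cKO late libraries. All 12 macrophage markers were in the table and tested, and 10 had a log2 change above 0 on lysate means, with 0 called. Their sum was 305 to 338 in WT early against 395 to 409 in cKO early, and 322 to 352 in WT late against 423 to 425 in cKO late libraries. The 6 leukocyte markers summed to 122 to 124 in WT early against 159 to 185 in cKO early, and 101 to 108 in WT late against 117 to 134 in cKO late libraries. These 6 did not rise alike. On lysate means Tyrobp was at 0.79 and Fcer1g at 0.40, while Laptm5, Cd53, Ptprc and Coro1a were at 0.19, 0.15, 0.13 and 0.10. Among single genes, 6.57% of those tested were higher in cKO without overlap in both fractions, and a share for list sums is not given here. The macrophage and leukocyte sums were higher in cKO without overlap in each fraction. So were the class I sum and the interferon-response sum given below, and, in late polysomes only, the class II sum. Lists of other cells did so too: the respiratory epithelium list was at 1339 to 1435 in WT early against 1642 to 1679 in cKO early and 967 to 1064 in WT late against 1300.0 to 1358 in cKO late libraries. The globose basal cell list was at 162 to 166 against 172 to 182 in early and 211 to 212 against 225 to 229 in late polysomes. Alas2, the red blood cell gene in the table, was at 32.2 to 47.3 against 50.4 to 57.3 in early and 36.7 to 46.3 against 57.3 to 59.2 in late polysomes. The immature olfactory neuron list was lower in cKO without overlap, at 1709 to 1756 against 1587 to 1613 in early and 1636 to 1823 against 1478 to 1488 in late polysomes. Most of the respiratory epithelium sum was Reg3g, at a mean of 1148 scaled TPM, and the red blood cell list was Alas2 alone. With that limit, some lists other than the immune ones were also higher in cKO, and their bearing on the MHC values was not tested. The part of macrophage or leukocyte number in the MHC values was not tested.

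The sums of the dendritic cell and B cell lists were below that of the class II members. The 9 dendritic cell markers summed to 40.4 to 40.9 in WT early against 32.9 to 35.7 in cKO early, and to 40.35 in both WT late against 42.9 to 44.8 in cKO late libraries, going opposite ways in the 2 fractions. Most of that sum was Zbtb46, at a mean of 31.1, while Xcr1, Clec9a and Ccr7 were at 0 in at least 1 library and had means of 0.142, 0.307 and 0.176; Cd209a was at 2.76, Clec10a at 2.38 and Itgax at 1.29. B and plasma cell markers (7 of 8 in the table, with Jchain at 0 in at least 1 library) summed to 10.12 to 15.4 in WT and 13.2 to 22.8 in cKO libraries of either fraction. T and NK cell markers (8 of 9 in the table, 6 of them at 0 in at least 1 library) summed to 3.02 to 7.36 in WT and 5.11 to 11.2 in cKO libraries. Neutrophil markers (8 of 9 in the table, with Retnlg at 0 in at least 1 library) summed to 344 to 385 in WT early against 419 to 498 in cKO early, and to 406 to 478 in WT late against 443 to 680 in cKO late libraries. Most of that sum in late libraries was Ltf, at a mean of 278.5 over the 8 libraries. On lysate means 7 of the 8 tested neutrophil markers were above 0, with 0 called. Their median was 0.30, against 0.00143 over all tested genes. Among them S100a8 and S100a9 were at 0.05 and -0.05 (limma adjusted p = 0.909 and 0.925). The interferon-response list summed to 608 to 634 in WT early against 750 to 765 in cKO early, and to 476 to 542 in WT late against 584 to 631 in cKO late libraries, with 0 of 27 tested genes called between genotypes on lysate means and 6 at an unadjusted p under 0.05. The part of neutrophil number or of an interferon response in the MHC values was not tested.

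**Figure D5:**
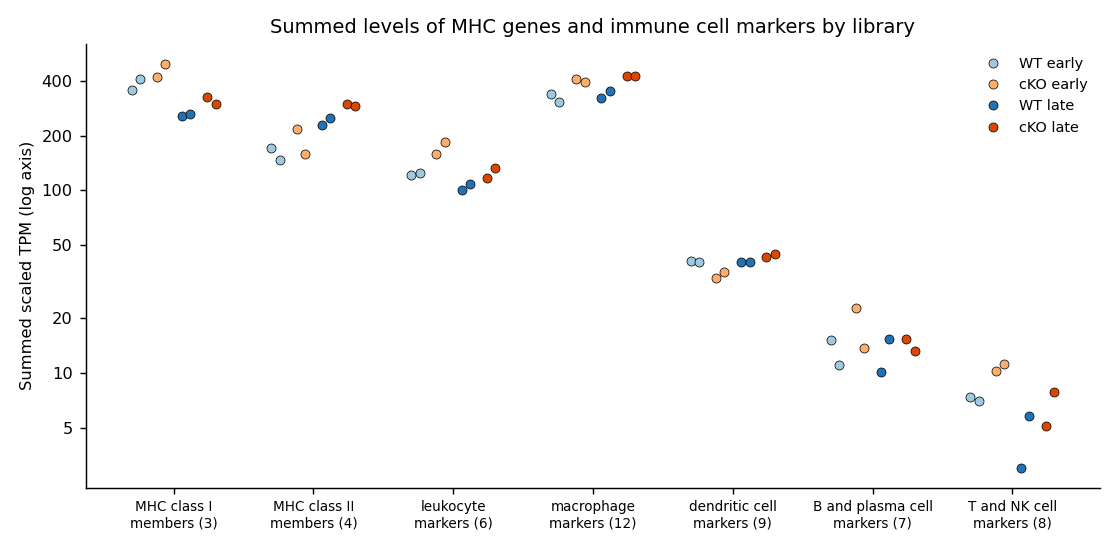
Summed scaled TPM (log axis) of the class I and class II members and of immune cell marker lists in each library (points, 2 per group; the number of genes in the table is in brackets). The leukocyte and macrophage sums are higher in cKO than in WT libraries of the same fraction, as are some lists of other cells not drawn here, and the dendritic, B and T cell sums are below the class II sum throughout.

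Of the 12 macrophage genes, 4 were higher and 2 lower in late polysomes (background 34.3% and 34.6%). Csf1r, the receptor of a macrophage growth factor, was higher in late polysomes by 0.91 (SE 0.13, limma adjusted p = 0.000341), and Aif1, which encodes a small calcium-binding protein, was lower, at -1.09 (SE 0.14, limma adjusted p = 0.000157). Lyz2, a lysozyme, was lower, at -0.44 (SE 0.07, limma adjusted p = 0.000828). Cd74 and H2-Ab1 thus had the direction of Csf1r, and B2m that of Aif1 and Lyz2. These macrophage genes were not set beside genes of like coding length, and a shared source was not tested.

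Profiles over the 8 libraries were compared among 12819 genes with a mean of at least 5 scaled TPM, as a description, since all 8 points share the early and late contrast. The genes most like the mean class II profile were Polr1c (Pearson r = 0.980), Prom2 (0.972), Ctss (0.972), Car6 (0.971) and Inpp5d (0.970). Ctss encodes the protease that removes the last of the invariant chain from class II, and it was at 23.1 to 34.8 deposited TPM in early and 42.5 to 47.4 in late libraries. The class II members themselves had r of 0.930 (H2-Ab1), 0.926 (Cd74), 0.785 (H2-Aa) and 0.766 (H2-Eb1) with the mean they form. The class I mean was not a shared profile, since H2-K1 had r = 0.331 with it, B2m 0.0112 and H2-D1 0.784. The genes nearest to it, C1qtnf2 (0.937), Cdc25c (0.930), Olfr1361 (0.915), Smad1 (0.907) and Slc39a8 (0.906), were more like that mean than any of its own members.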

How the data were processed

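The members and gene lists were chosen with earlier results of these data known. The authors deposited 1 table of TPM per gene symbol and library. Per the submitters' processing notes, FastQC, cutadapt, STAR, DESeq2 and the build mm10 were used, and the counting method and annotation are not given in the sources used here. Per the labels' protocols, libraries were made with a stranded total RNA kit for low input. Groups came from the titles, and library names gave the lysates.

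After scaling by median ratios, limma 3.58.1 (R 4.3.3) was run on log2(scaled TPM + 1) with a mean-variance trend and the 4 groups in the same fit. The 16097 genes tested had a mean of 1 or more deposited TPM. This scale understates changes of low genes. P-values are two-sided, with Benjamini-Hochberg adjustment over these genes and a threshold of 0.05. The lysate mean compares 2 WT with 2 cKO lysates. Whole reads were inferred from TPM steps for the 19783 genes detected in 2 or more libraries (100%, tolerance 0.001), as the likely depth. Tests were run on simulated libraries with few genes changed and no lysate effect. These do not cover a contrast such as late against early, in which most genes were called. Alternatives were pseudocounts of 0.1 and 0.5, no filter, a mean TPM of at least 5, unscaled TPM, quantile normalization, no trend, voom on inferred reads, only the 4 libraries compared, leaving out each library or lysate, and replicate blocks.

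Early and late libraries of a lysate share their tissue, which pairs them. The correlation over genes of their deviations from group means was 0.0862 for WT and 0.0502 for cKO lysates. WT and cKO lysates share only a number. Named genes are the members, Mex3a and, from each list and comparison, up to 3 higher and 3 lower genes with the largest change among those past the threshold with a mean of at least 5 scaled TPM, and the 2 most abundant. The 5 genes nearest to each class profile were named by Pearson correlation. Gene models came from GENCODE M21 (GRCm38) and promoters from RefSeq (GRCm38.p6). Nlrc5, Ciita, H2-Ea-ps, Ptprc, Cd53, markers at 0 and genes printed for their level were named after their values were seen.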

Additional observations from a re-analysis of the deposited data

How the results depend on the processing

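Groups hold 2 libraries, so leaving out a library leaves an arm with 1, assumed to vary like the others. The number of members called stayed within 1.5 times its main value in every alternative run, and was 0 between genotypes and for the interaction in all of them. With TPM as deposited, the difference of B2m between genotypes in late polysomes turned to -0.011 and the interaction of H2-Ab1 to 0.0064, both within the error. The following changes, none past the threshold with all libraries, turned direction without 1 library, with ranges over the libraries left out; the cause was not tested. Late minus early ranged from -0.094 to 0.14 for H2-Eb1 in WT, and in cKO from -0.055 to 0.37 for H2-D1 and from -0.085 to 0.37 for H2-Aa. Between genotypes in early polysomes, H2-Ab1 ranged from -0.026 to 0.33 and H2-Eb1 from -0.66 to 0.26. In late polysomes the ranges were -0.089 to 0.35 for H2-D1, -0.032 to 0.085 for B2m, -0.0195 to 0.30 for H2-Ab1 and -0.091 to 0.79 for H2-Eb1. The interaction ranged from -0.38 to 0.077 for H2-Aa, from -0.19 to 0.17 for H2-Ab1 and from -0.10 to 0.33 for Cd74. On lysate means, without a lysate, H2-Ab1 ranged from -0.021 to 0.31 and H2-Eb1 from -0.38 to 0.53.

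The replicate block by lysate called 5 members in cKO and 5 on the mean of genotypes, against 4 and 4 without it. It changed no other member's call than that of H2-Eb1. The share of all tested genes called with this block is not given here, so these counts have no background beside them. Blocked by replicate number, which is not known to pair WT with cKO lysates, 0 members were called between genotypes. For libraries with the same number in WT and cKO, the correlation of deviations over genes was 0.331 (early) and 0.142 (late).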
